A study of Homo sapiens with 24 samples.

Results

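The 10 genes described here make and modify fatty acids: SREBF1, ACLY, ACSS2, ACACA, FASN, SCD, ELOVL5, ELOVL6, FADS1 and FADS2. They were chosen by function, as the human genes of the fatty acid synthesis and desaturation pathway whose Ensembl identifier maps to one of these symbols. The choice was made with earlier results of these data known. All 10 were found among the 61860 identifiers of each count table. In each of 4 RNA-seq experiments the treated libraries were compared with that experiment's own controls. A filter on low counts passed 9 of the 10 genes in every experiment and ELOVL5 in none.

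Cells build fatty acids from acetyl-CoA in the cytosol. ACLY makes that acetyl-CoA from citrate and ACSS2 makes it from acetate, ACACA carboxylates it to malonyl-CoA, and FASN joins these units into palmitate. ELOVL6 lengthens palmitate, SCD places the first double bond and so makes monounsaturated fatty acids, and ELOVL5, FADS1 and FADS2 lengthen and desaturate polyunsaturated fatty acids taken up from outside. SREBF1 encodes the transcription factor SREBP1, held in the membrane of the endoplasmic reticulum by INSIG proteins and carried off for cleavage by SCAP, which is known to switch on most of these genes when lipid is scarce. Many carcinomas run this pathway at a high level.

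All libraries came from OE33, a cell line from an adenocarcinoma of the lower esophagus, with 3 libraries in each of 8 groups. The HFD and ND libraries were subcutaneous OE33 xenografts in male BALB/c-nu nude mice, which lack T cells. The mice were bought at 4 weeks of age and fed a high-fat (HFD) or normal diet (ND) for 8 weeks before injection and for the 3 weeks of tumor growth, and the HFD mice used were those selected by body weight. The other groups were cultured OE33 cells transfected with plasmids: HA-tagged TRIM15, a ubiquitin ligase (HA-TRIM15), or its empty vector (EV) for 48 h, and short hairpin RNAs against the transcription factor YY2 (shYY2) or against FOXRED1, an assembly factor of respiratory complex I (shFOXRED1), each with its own shControl, for 72 h. Which hairpin was sequenced is not stated. The labels do not say that replicates of the cultured groups were separate cultures. Neither the sample titles nor the paper say that each xenograft library was a separate tumor or mouse. All p-values therefore measure the spread between these libraries, which may be technical, and the HFD and ND tumors named below are libraries.

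Counts summed to between 14299807 and 45994561 per library. The HA-TRIM15 libraries held 111, 130 and 181 TRIM15 counts and the EV libraries 0, and in the xenografts 14, 12 and 24 counts on HFD against 1, 0 and 0 on ND. YY2 had 11, 12 and 11 counts with shYY2 against 43, 40 and 46 with shControl. FOXRED1 had 183, 207 and 129 counts with shFOXRED1 against 322, 259 and 254 with its shControl. In the xenografts, 6 markers of OE33 epithelium summed to 12180, 12110 and 12050 CPM (counts scaled to library size with TMM factors within the experiment) on HFD and to 11420, 11680 and 11600 CPM on ND, with no overlap; 2 of the 6 were called higher on HFD and 2 lower. The part of this in the differences below was not tested. Host cells in a xenograft are mouse cells, so human markers of other cell types cannot show how many were present. How mouse reads in the xenografts were treated is not given. Human markers of other cell types were near 0 there: the 6 macrophage markers summed to at most 0.565 CPM, the 6 endothelial markers to at most 0.577 CPM and the 7 adipocyte markers to 2.13 to 2.70 CPM, with 5 of those 7 at 3 counts or fewer in all 6 libraries. The 6 fibroblast markers summed to 23.7 to 27.0 CPM on HFD and 30.5 to 33.5 CPM on ND, of which 3 were at 3 counts or fewer in all 6 libraries.

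The first comparison asked how the pathway differed between tumors grown in HFD and ND mice. Of the 9 genes tested, 5 were higher in HFD tumors (ACLY, FASN, SCD, ELOVL6 and FADS1), 2 were lower (SREBF1 and ACACA), and ACSS2 and FADS2 did not pass the test (edgeR quasi-likelihood test on 17012 genes, p adjusted by Benjamini-Hochberg, threshold 0.05). Among all genes tested 49.5% were called, 25.6% higher and 23.9% lower. The median log2 fold change of the 9 genes was 0.14 against -0.01 over all genes. As these are bulk tumors, fewer cells of a type and less RNA per cell cannot be told apart.

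SREBF1, the regulator, measured 67.6, 63.8 and 66.2 CPM in the HFD tumors and 79.0, 86.9 and 82.5 CPM in the ND tumors. Every HFD tumor was below every ND tumor. The log2 fold change was -0.33 (SE 0.04, adjusted p = 8.1e-06). ACLY, the first enzyme of the path from citrate, measured 436, 410.3 and 432 CPM on HFD and 307, 310.2 and 313 CPM on ND. All HFD tumors lay above all ND tumors, with a log2 fold change of 0.46 (SE 0.03, adjusted p = 1.7e-08). ACSS2, the acetate-using enzyme, lay at 85.5 ± 1.14 CPM on HFD and 81.3 ± 5.64 CPM on ND (SD, n = 3), with overlapping groups and a log2 fold change of 0.07 (95% interval -0.03 to 0.16, adjusted p = 0.248).

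ACACA and FASN, the enzymes of the synthesis itself, had different signs. ACACA measured 25.3, 18.0 and 18.1 CPM on HFD and 25.1, 24.8 and 28.0 CPM on ND. A pair of HFD tumors lay below the ND tumors and one lay among them. Its log2 fold change of -0.34 (SE 0.10, adjusted p = 0.0093) was not called by DESeq2's Wald test (adjusted p = 0.118) or without HFD replicate 3 (adjusted p = 0.078). FASN measured 268, 266 and 256 CPM on HFD and 235, 259.6 and 219 CPM on ND, and its groups overlapped. Its log2 fold change was 0.14 (SE 0.05, adjusted p = 0.024). That call was lost with upper quartile factors (adjusted p = 0.154), with total counts (adjusted p = 0.601) and without any one of HFD replicates 1 and 2 and ND replicates 1 and 3 (adjusted p = 0.057 to 0.092).

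SCD and ELOVL6, which turn palmitate into longer and monounsaturated fatty acids, showed the largest rises of the 9 genes on HFD. SCD measured 296, 294 and 295 CPM on HFD and 213, 195 and 224 CPM on ND. The HFD tumors were nearly alike and all above the ND tumors, with a log2 fold change of 0.49 (SE 0.04, adjusted p = 1.3e-07). ELOVL6 measured 85.4, 80.0 and 87.4 CPM on HFD and 61.7, 55.9 and 56.7 CPM on ND. These groups did not overlap either, and the log2 fold change was 0.54 (SE 0.05, adjusted p = 7.1e-08). FADS1, the desaturase of polyunsaturated fatty acids that acts downstream of FADS2, lay at 40.7 ± 0.44 CPM on HFD and 35.3 ± 0.88 CPM on ND, a log2 fold change of 0.21 (SE 0.04, adjusted p = 0.0011) with no overlap. FADS2 was low in both, at 6.34 ± 0.55 and 6.90 ± 0.29 CPM, and its groups overlapped (log2 fold change -0.11, 95% interval -0.32 to 0.09, adjusted p = 0.345). In all, 5 of the 9 genes showed no overlap, against 56.2% of all genes. Scaling by total counts moved the median of all genes by -0.11, which turned ACSS2 to -0.04 and ended the calls of FASN and FADS1 (adjusted p = 0.084), and it changed the calls over all genes from 4354 higher and 4061 lower to 2800 higher and 6415 lower.

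**Figure D1:**
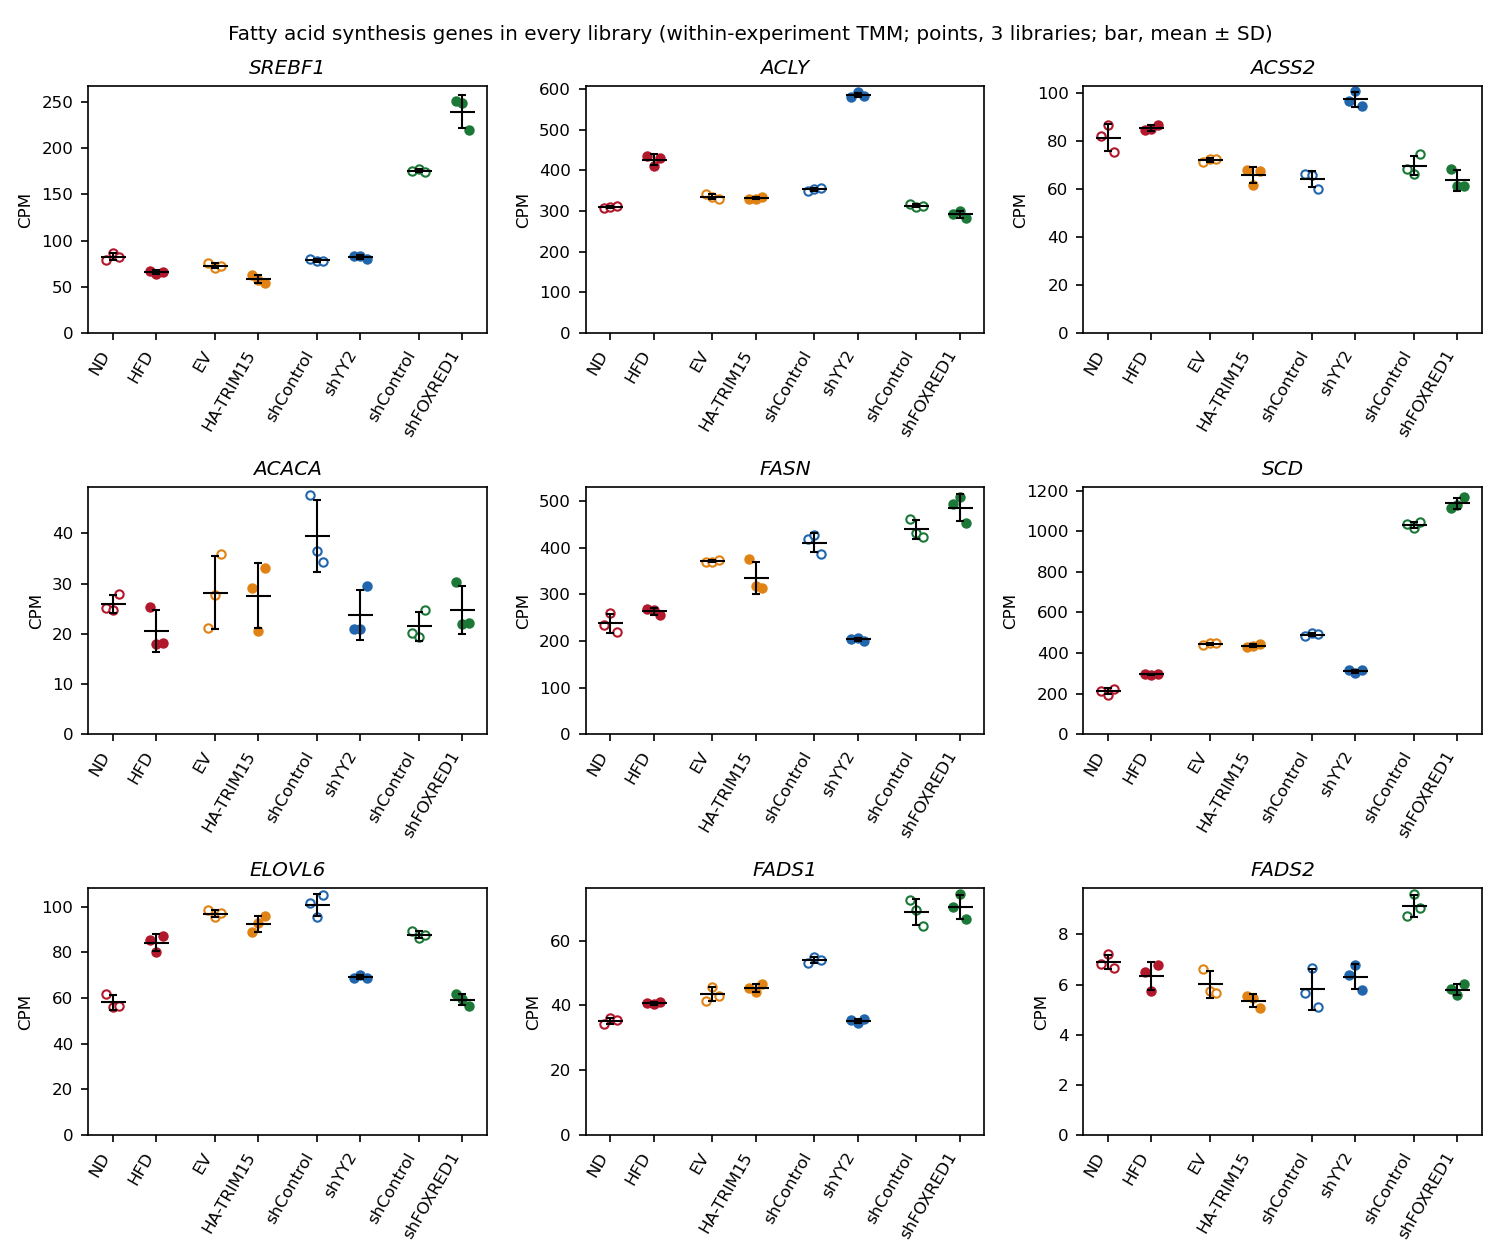
CPM (counts scaled to library size within each experiment, linear axes from 0) of the 9 tested genes in all 24 libraries: open circles are controls, filled circles treated libraries, bars the mean ± SD of 3. ACLY, SCD and ELOVL6 in HFD stand above ND, FASN, SCD, ELOVL6 and FADS1 in shYY2 stand below shControl, and the scatter of ACACA within groups is wide.

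The second comparison asked what raising TRIM15 does to these genes in culture. The test called 0 of the 9 higher and 2 lower (SREBF1 and ACSS2), and 7 did not pass it (edgeR, 15745 genes). Of all genes tested, 22.1% were called, 12.5% higher and 9.53% lower. At an unadjusted p under 0.05, and with DESeq2, the higher count was also 0. The median log2 fold change of the 9 genes was -0.07 against -0.01 over all genes.

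SREBF1 measured 63.0, 57.1 and 54.4 CPM with HA-TRIM15 and 75.7, 70.4 and 73.0 CPM with EV. All HA-TRIM15 libraries were below all EV libraries, and the log2 fold change was -0.32 (SE 0.05, adjusted p = 0.00052). ACSS2 measured 67.9, 61.8 and 67.6 CPM against 71.1, 72.3 and 72.5 CPM. These groups did not overlap, but the log2 fold change of -0.13 (SE 0.04, adjusted p = 0.047) was not called by DESeq2 (adjusted p = 0.086) or without HA-TRIM15 replicate 2 or any one EV replicate (adjusted p = 0.094 to 0.228).

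FASN measured 375, 317 and 315 CPM with HA-TRIM15 and 370.4, 369 and 374 CPM with EV. A pair of HA-TRIM15 libraries lay below all EV libraries and replicate 1 lay above them. Its log2 fold change was -0.14 (SE 0.05, adjusted p = 0.063), and without HA-TRIM15 replicate 1 it was -0.23 (adjusted p = 1.0e-06). FASN was also called with upper quartile factors (adjusted p = 0.031), total counts (adjusted p = 0.018) and no filter on low counts (adjusted p = 0.00032). ACLY stood at 331 ± 2.59 CPM against 335 ± 6.65 CPM, with a 95% interval of the log2 fold change from -0.08 to 0.05. SCD stood at 435 ± 6.86 CPM against 446 ± 4.00 CPM, with an interval from -0.10 to 0.03. Neither interval holds the log2 fold change that the same gene had on HFD. ELOVL6 (-0.07), FADS1 (0.06), FADS2 (-0.16) and ACACA (-0.04) had adjusted p from 0.230 to 0.889. The sign of ACACA turned without HA-TRIM15 replicate 2 or EV replicate 3. No overlap was seen for 3 of the 9 genes, all lower with HA-TRIM15. Over all genes the share was 37.7% in either direction, with 17.6% lower and 20.1% higher with HA-TRIM15.

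The third comparison was knockdown of YY2. Of the 9, 2 were higher with shYY2 (ACLY and ACSS2, which both supply cytosolic acetyl-CoA), 5 were lower (ACACA, FASN, SCD, ELOVL6 and FADS1, which build, lengthen or desaturate fatty acids), and SREBF1 and FADS2 did not pass the test (edgeR, 16006 genes). Most genes moved in this experiment: 75% of all genes tested were called, 36.8% higher and 38.1% lower, and 76.3% showed no overlap, against 7 of the 9 genes here. The median size of the log2 fold change, without sign, was 0.61 for the 9 genes and 0.47 over all genes.

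ACLY measured 582, 592 and 583 CPM with shYY2 and 349.8, 353 and 358 CPM with shControl. Every shYY2 library was far above every control, with a log2 fold change of 0.73 (SE 0.03, adjusted p = 7.0e-13). ACSS2 measured 96.8, 101 and 94.5 CPM against 66.4, 66.0 and 60.2 CPM. It too showed no overlap, with a log2 fold change of 0.60 (SE 0.04, adjusted p = 2.5e-09). SREBF1, at 82.3 ± 1.93 CPM against 78.7 ± 1.49 CPM, had overlapping groups and a log2 fold change of 0.06 (95% interval -0.01 to 0.14, adjusted p = 0.111). SREBF1 was called higher with upper quartile factors (adjusted p = 0.0014), total counts (adjusted p = 0.0498) and at least 10 counts in every library (adjusted p = 0.031).

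FASN measured 204, 207 and 201 CPM with shYY2 and 418, 429 and 388 CPM with shControl. The shYY2 libraries were close together and far below all controls, and the log2 fold change of -1.01 (SE 0.04, adjusted p = 6.5e-13) was the largest of the 9 genes. SCD measured 314, 302 and 315 CPM against 482, 498 and 494 CPM, again without overlap (log2 fold change -0.66, SE 0.03, adjusted p = 6.6e-12). ACACA measured 20.9, 20.9 and 29.4 CPM against 47.7, 36.5 and 34.3 CPM. Its groups were apart in spite of their scatter, with a log2 fold change of -0.72 (SE 0.13, adjusted p = 8.3e-05).

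ELOVL6 lay at 69.3 ± 0.84 CPM with shYY2 and 101 ± 4.86 CPM with shControl, with no overlap (log2 fold change -0.54, SE 0.04, adjusted p = 3.3e-09). FADS1 lay at 35.3 ± 0.55 and 53.9 ± 0.83 CPM, with no overlap (log2 fold change -0.61, SE 0.04, adjusted p = 2.1e-09). FADS2, at 6.32 ± 0.50 and 5.81 ± 0.80 CPM, had overlapping groups and a 95% interval of the log2 fold change from -0.14 to 0.39 (adjusted p = 0.379). The 7 called genes kept their direction and their side of the threshold without any one library. Some markers of other cell types moved in these cultures: COL1A1, a fibroblast collagen that OE33 also expressed, rose from 10.6 to 42.7 CPM, and the adipocyte list summed to 6.78 to 7.79 CPM with shYY2 against 0.945 to 1.31 CPM, nearly all of it PLIN4, with ADIPOQ and LPL at 0. The 6 epithelial markers summed to 14500 to 14900 CPM with shYY2 and 10800 to 11500 CPM with shControl. The part of these values in the changes of the 9 genes was not tested.

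The sequence before the start sites of genes that moved in opposite directions with shYY2 is shown here for ACLY, which rose, and for SCD, ELOVL6 and FADS1, which fell. Each is the 250 bases before a RefSeq start site (GRCh38.p14), written 5′ to 3′ in the direction of the gene, with capitals for CCAAT boxes (CCAAT) and GC boxes (GGGCGG) on either strand. The windows are chr17:41919023-41919272 on the minus strand for ACLY, chr10:100346983-100347232 on the plus strand for SCD, chr4:110198616-110198865 on the minus strand for ELOVL6 and chr11:61817004-61817253 on the minus strand for FADS1.
ACLY: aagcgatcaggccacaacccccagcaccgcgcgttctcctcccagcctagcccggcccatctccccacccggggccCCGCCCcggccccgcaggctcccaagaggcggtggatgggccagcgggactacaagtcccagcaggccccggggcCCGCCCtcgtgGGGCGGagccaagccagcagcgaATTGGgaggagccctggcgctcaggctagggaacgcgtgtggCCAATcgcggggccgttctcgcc
SCD: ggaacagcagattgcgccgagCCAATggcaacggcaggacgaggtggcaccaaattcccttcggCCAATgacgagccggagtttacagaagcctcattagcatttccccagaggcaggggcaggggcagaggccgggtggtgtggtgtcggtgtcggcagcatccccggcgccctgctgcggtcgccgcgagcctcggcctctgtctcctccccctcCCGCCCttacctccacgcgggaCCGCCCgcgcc
ELOVL6: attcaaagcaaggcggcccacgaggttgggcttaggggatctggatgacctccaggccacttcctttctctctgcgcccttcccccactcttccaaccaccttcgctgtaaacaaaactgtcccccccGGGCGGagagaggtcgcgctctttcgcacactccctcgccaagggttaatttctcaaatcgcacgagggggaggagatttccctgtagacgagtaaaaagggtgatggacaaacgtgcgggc
FADS1: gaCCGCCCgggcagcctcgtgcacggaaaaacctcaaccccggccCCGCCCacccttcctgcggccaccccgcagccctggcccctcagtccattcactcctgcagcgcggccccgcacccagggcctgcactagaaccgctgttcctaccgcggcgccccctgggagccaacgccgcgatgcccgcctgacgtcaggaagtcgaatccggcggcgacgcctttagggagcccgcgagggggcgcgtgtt
Windows from 250 bases before to 50 bases after a start site were available for 9 of the 10 genes, 14 windows in all, and not for FASN. CCAAT boxes were found in 8 of the 14 windows, which belong to ACLY, ACSS2, ACACA, SCD, ELOVL5 and FADS2, and in 34.6% of all 35116 windows. GC boxes were found in 11 of the 14 windows, at least 1 for each of the 9 genes but ELOVL5, against 45% of all windows. The ACLY windows overlap and hold the same CCAAT and GC boxes, which were counted in each window. The FADS2 windows overlap too, so the 14 windows are not independent. The sterol element core TCACNCCAC was in 0 of the 14 windows (1.13% of all windows), the YY core GCCATNTT, a motif of the YY family, in 0 (6.58%), and the E-box CACGTG only in that of ELOVL5 (7.26%). A match describes letters and is not a site, and a motif outside these windows was not looked for. The printed windows of ACLY and SCD, which moved in opposite directions, both hold CCAAT and GC boxes, while those of ELOVL6 and FADS1, which both fell, hold GC boxes alone.

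The fourth comparison asked what lowering FOXRED1 does to the same genes. Of the 9, 3 were higher with shFOXRED1 (SREBF1, SCD and FASN), 2 were lower (ELOVL6 and FADS2), and ACLY, ACSS2, ACACA and FADS1 did not pass the test (edgeR, 15730 genes). Of all genes tested 36.6% were called, 16.8% higher and 19.7% lower. The median log2 fold change was 0.03 over the 9 genes and 0.01 over all genes.

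SREBF1 measured 250.5, 249 and 219 CPM with shFOXRED1 and 176, 177 and 174 CPM with its shControl. All shFOXRED1 libraries were above all controls, with a log2 fold change of 0.45 (SE 0.06, adjusted p = 1.1e-05). SCD measured 1117, 1129 and 1170 CPM against 1034, 1015 and 1046 CPM. The groups did not overlap, and the log2 fold change of 0.14 (SE 0.04, adjusted p = 0.011) was not called without shControl replicate 1 (adjusted p = 0.054) or 2 (adjusted p = 0.071). FASN measured 495, 509.7 and 454 CPM against 463, 433 and 424 CPM. Its groups overlapped, and its log2 fold change of 0.14 (SE 0.05, adjusted p = 0.043) was not called with no filter on low counts (adjusted p = 0.051) or without any one of shFOXRED1 replicates 1 and 2 and shControl replicates 2 and 3 (adjusted p = 0.116 to 0.209).

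ELOVL6 measured 61.7, 59.8 and 56.6 CPM with shFOXRED1 and 89.4, 86.1 and 87.7 CPM with shControl. All shFOXRED1 libraries were below all controls, with a log2 fold change of -0.56 (SE 0.06, adjusted p = 2.0e-06). FADS2, the desaturase that opens the polyunsaturated path, measured 5.82, 5.57 and 6.02 CPM against 8.75, 9.62 and 9.04 CPM. It was low, but its groups did not overlap, and it fell by 0.65 on the log2 scale (SE 0.14, adjusted p = 0.0011). FADS1, its neighbor on chromosome 11, lay at 70.3 ± 3.79 against 68.8 ± 4.12 CPM, with overlap and a 95% interval of the log2 fold change from -0.11 to 0.18. The 2 genes lie head to head, with start sites 599 or 800 bases apart, and share 490 exonic bases on opposite strands in GENCODE 29 (4.79% of the exons of FADS1 and 4.44% of those of FADS2). Reads on that stretch cannot be told apart if they were counted without strand. The same limit holds for SREBF1, which shares 556 exonic bases (6.92% of its exons) with RAI1 on the opposite strand. It also holds for ACLY, which shares 156 (2.99%) with AC125257.2 on the opposite strand.

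ACLY lay at 292 ± 9.03 CPM with shFOXRED1 and 313 ± 3.59 CPM with shControl. All shFOXRED1 libraries were below all controls, but the log2 fold change of -0.10 (SE 0.05, adjusted p = 0.123) was called only with the replicate number as a block (adjusted p = 0.026). ACSS2, with overlapping groups, stood at -0.13 (95% interval -0.28 to 0.02). ACACA, also overlapping, stood at 0.21 (-0.06 to 0.48), with an adjusted p of 0.047 without shFOXRED1 replicate 3. No overlap was seen for 46.7% of all genes. Scaling by total counts changed the calls over all genes from 2650 higher and 3102 lower to 3325 higher and 2476 lower. In these cultures the 6 fibroblast markers summed to 38.4 to 41.8 CPM with shFOXRED1 and 24.2 to 25.5 CPM with shControl, of which 4 were at 3 counts or fewer in all 6 libraries. The part of this in the changes of the 9 genes was not tested.

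**Figure D2:**
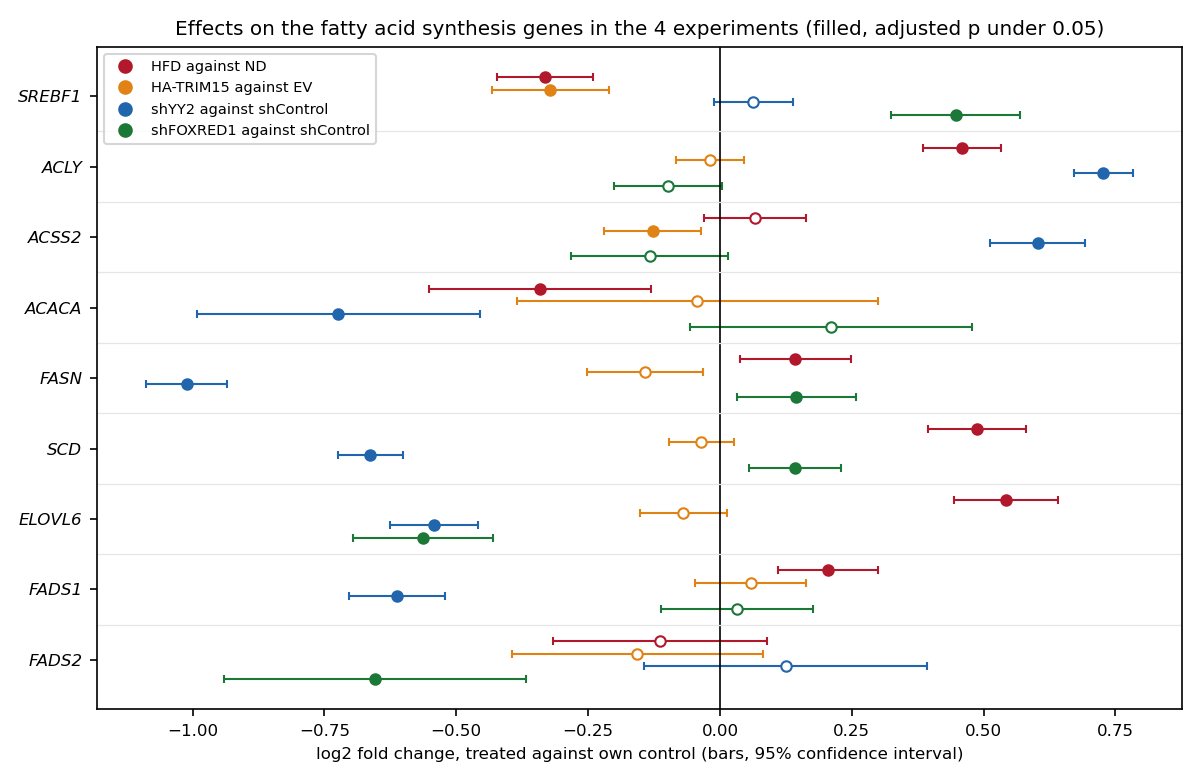
Log2 fold change of the 9 tested genes, treated against own control, in the 4 experiments (points, edgeR estimates; bars, 95% confidence intervals; filled points, adjusted p under 0.05). FASN at -1.01 and ACLY at 0.73 with shYY2 are the outermost points, SREBF1 lies at -0.33 and -0.32 on HFD and with HA-TRIM15 and at 0.45 with shFOXRED1, and most HA-TRIM15 points lie close to 0.

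Whether a gene responded differently in 2 experiments was tested in 1 fit of all 24 libraries (17980 genes), with each experiment's own control in the contrast. The study sets TRIM15, YY2 and FOXRED1 in one line of regulation, so neighboring steps of that line were compared. The effects of HFD and HA-TRIM15 differed for 5 of the 9 genes, against 28.4% of all genes. ACLY (difference 0.48, SE 0.04), SCD (0.53, SE 0.05) and ELOVL6 (0.62, SE 0.06) were higher on HFD relative to HA-TRIM15 with adjusted p of at most 7.4e-09, followed by FASN (0.29, SE 0.08, adjusted p = 0.0065). ACSS2 (0.20, SE 0.07, adjusted p = 0.040) was lost without any one of 9 of the 12 libraries. For SREBF1 the difference was -0.00 (95% interval -0.15 to 0.15, adjusted p = 0.984).

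The effects of HA-TRIM15 and shYY2 differed for 8 of the 9 genes, against 57.4% of all genes. FASN differed most, by 0.83 (SE 0.08, adjusted p = 3.6e-10), and ACLY by -0.78 (SE 0.04, adjusted p = 1.7e-15). ACACA (0.65, SE 0.24, adjusted p = 0.022) was lost without any one of 5 libraries, and FADS2 (-0.32, SE 0.16, adjusted p = 0.090) was not called. SREBF1, lower with HA-TRIM15 and not called with shYY2, differed by -0.42 (SE 0.08, adjusted p = 1.7e-05).

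The effects of shYY2 and shFOXRED1 differed for 8 of the 9 genes too, against 55.5% of all genes. FOXRED1 itself was lower in both experiments against their own controls. Its log2 fold change was -0.89 with shYY2 (edgeR, adjusted p = 3.3e-09) and -0.78 with shFOXRED1 (adjusted p = 4.1e-05). It was also lower with HA-TRIM15 (-0.24, adjusted p = 0.0051) and not called on HFD (-0.06, adjusted p = 0.414). FASN (-1.11, SE 0.08) and SCD (-0.76, SE 0.05) were lower with shYY2 and higher with shFOXRED1, and both differences passed the test (adjusted p = 6.8e-13 and 1.5e-13). ACLY differed by 0.87 (SE 0.05, adjusted p = 2.4e-16) and FADS2 by 0.82 (SE 0.16, adjusted p = 5.4e-05). ELOVL6, lower in both, was the exception, with a difference of 0.06 (95% interval -0.07 to 0.20, adjusted p = 0.447).

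**Figure D3:**
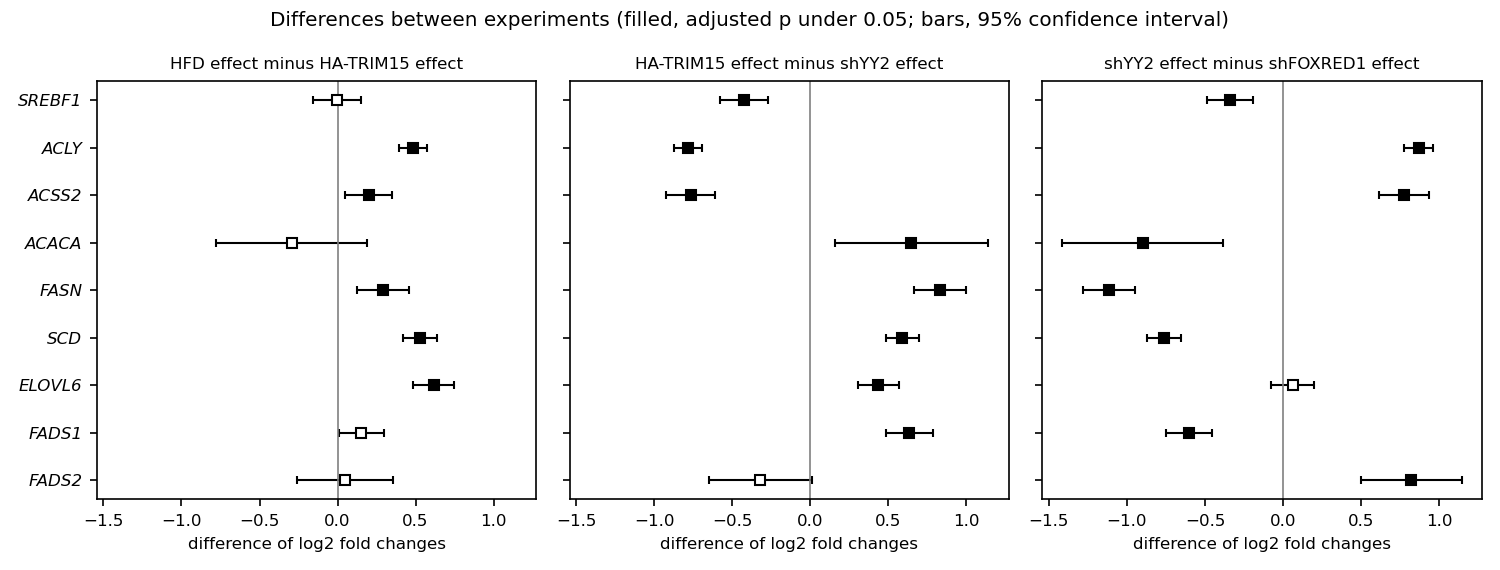
Difference of log2 fold changes of the 9 tested genes between neighboring experiments in one fit of 24 libraries (squares, estimates; bars, 95% confidence intervals; filled, adjusted p under 0.05). SREBF1 sits at 0 in the left panel, and ELOVL6 near 0 in the right panel at 0.06, while FASN reaches 0.83 and -1.11 in the other two panels.

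Levels were set side by side with 1 scaling over all 24 libraries, as CPM per kilobase of exon (GENCODE 29), with no test. The labels name no batch, and batch and experiment cannot be told apart. SCD, ACLY and FASN were the 3 highest of the 10 genes in all 8 groups. SCD ranged from 38.4 ± 2.83 in ND tumors to 209.5 ± 4.97 with shFOXRED1, ACLY from 55.3 ± 1.85 with shFOXRED1 to 114 ± 0.99 with shYY2, and FASN from 22.1 ± 0.38 with shYY2 to 51.3 ± 3.14 with shFOXRED1. FADS2 was the lowest of the 9 expressed genes in every group, between 0.499 and 0.824 CPM per kilobase, and ACACA came next, between 1.54 and 3.01. ACSS2, ELOVL6, SREBF1 and FADS1 lay between, in an order that changed between groups and between exon length and longest transcript, and with the longest transcript ACSS2 passed FASN in shYY2.

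The 2 shControl groups, of separate experiments, did not have the same levels. On the common scale SCD was 1025 CPM in the shControl of shFOXRED1 and 487 CPM in that of shYY2, a ratio of 2.10, and SREBF1 was 175 and 78.1 CPM, a ratio of 2.24. FADS2 (1.58) and FADS1 (1.28) were also higher there, while ACACA stood at 0.544 times and ELOVL6 at 0.872 times. Batch, culture and control plasmid cannot be told apart in this difference. In the order of SREBF1 levels, shFOXRED1 and its shControl stood apart at the top, shYY2, ND, the shControl of shYY2 and EV followed with each overlapping its neighbor, and HFD and HA-TRIM15 overlapped at the bottom.

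Replicates scattered unequally from gene to gene. The SD as a share of the mean had a median over the 8 groups of 1.13% for ACLY, 1.52% for SCD and 2.47% for FADS1, and of 19.8% for ACACA, whose range was 6.99% to 26.1%. The interval of ACACA with HA-TRIM15 was the widest of the 9 genes there, from -0.39 to 0.30. For ELOVL5, the elongase of polyunsaturated fatty acids, 21 of the 24 libraries held 0 counts and the other 3 held 1 to 3 counts. GCLC, which lies next to it on the chromosome, held 1951 to 6436 counts. Whether ELOVL5 was silent or its reads were not counted cannot be told from the tables.

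Over the 24 libraries, log2 CPM centred on each experiment's mean went together for FASN and FADS1 (Pearson r = 0.91), SCD and FADS1 (0.88), FASN and SCD (0.80) and ACLY and ACSS2 (0.84), and oppositely for ACSS2 and FADS1 (-0.81). These values are descriptions: libraries share treatment and depth, and every treatment effect enters them. The r of SREBF1 on this measure was 0.01 with FASN, -0.30 with SCD and -0.69 with ELOVL6. Centred on each group instead, so that only replicates vary, the r of FASN and SCD was -0.63 and that of SREBF1 and FASN 0.70. For 4 of the genes the most similar patterns on the first measure were looked up among 13037 genes: they were PGAP3 (0.97), FBXL19 (0.94) and ENTPD6 (0.94) for SREBF1, DHX37 (0.98), SLC4A2 (0.98) and RPS6KA4 (0.98) for FASN, ADAMTS9 (0.98), IL18R1 (0.98) and PLIN2 (0.97) for SCD, and OSBPL10, C1orf198 and WSB2 (each 0.87) for FADS2.

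The regulators around SREBP1 formed a list of 14 genes, all tested in every experiment. On HFD 3 were higher and 7 lower (3 and 5 with DESeq2), with HA-TRIM15 5 higher and 1 lower (4 and 0 with DESeq2), with shYY2 9 higher and 2 lower, and with shFOXRED1 5 higher and 1 lower. For this and the following lists, the shares of all genes called higher and lower were 25.6% and 23.9% on HFD, 12.5% and 9.53% with HA-TRIM15, 36.8% and 38.1% with shYY2 and 16.8% and 19.7% with shFOXRED1. INSIG1, which retains SREBPs in the membrane, was called higher in all 4 experiments: it went from 47.1 to 62.6 CPM on HFD (log2 fold change 0.42), from 25.6 to 36.0 CPM with HA-TRIM15 (0.49), from 50.2 to 82.4 CPM with shYY2 (0.71) and from 32.9 to 68.6 CPM with shFOXRED1 (1.06). SREBF1 itself was lower in the first 2 of these, not called in the third and higher in the fourth. MLXIPL, which encodes ChREBP, a glucose-responsive activator of ACLY, FASN and related genes, rose from 1.95 to 19.9 CPM with shYY2 (log2 fold change 3.35) and lay within 0.14 of 0 on the log2 scale in the other 3 experiments. SCAP, the escort of SREBPs, was lower on HFD (-0.24). With HA-TRIM15 SCAP was called lower by edgeR (-0.16, adjusted p = 0.039) and not by DESeq2. It was higher with shYY2 (0.10, adjusted p = 0.047 by edgeR) and not called with shFOXRED1 (0.14).

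Genes that supply acetyl-CoA, malonyl-CoA and NADPH formed a list of 15 genes. On HFD 6 were higher, among them PGD (0.59) and ME1 (0.51), which make NADPH, and 6 lower, among them ACACB (-0.45), the mitochondrial counterpart of ACACA. With HA-TRIM15 0 were higher (0 too at an unadjusted p under 0.05 and with DESeq2) and 6 lower, among them MECR (-0.36), an enzyme of mitochondrial fatty acid synthesis. With shYY2 6 were higher and 8 lower, with ACACB at 1.01 and ACSS1, the mitochondrial counterpart of ACSS2, at 1.04, so that ACACB rose where ACACA fell. Among those that fell were MCAT (-0.81) and OXSM (-0.66), enzymes of mitochondrial fatty acid synthesis. With shFOXRED1 6 were higher and 2 lower, the latter ME1 (-0.58) and CS (-0.28), the citrate synthase.

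Of the other elongation and desaturation genes, 16 in number with 13 or 14 tested, 5 rose and 1 fell on HFD, 3 rose and 0 fell with HA-TRIM15 by edgeR (3 fell at an unadjusted p under 0.05 and 0 with DESeq2), 5 rose and 6 fell with shYY2 and 1 rose and 4 fell with shFOXRED1. HSD17B12, the ketoreductase of the elongation cycle, followed ELOVL6 in sign on HFD (0.73), with shYY2 (-1.15) and with shFOXRED1 (-0.85), and it was also higher with HA-TRIM15 (0.26), where ELOVL6 was not called. The desaturase relatives FADS3 (1.62) and SCD5 (0.56) were higher with shYY2, where FADS1 and SCD were lower. The list named fatty acid activation held 10 genes, with 8 or 9 tested. It mixed activating enzymes with fatty acid carriers and a thioesterase. On HFD 7 rose and 1 fell, with HA-TRIM15 3 rose and 1 fell, and with shYY2 2 rose and 6 fell. With shFOXRED1 0 rose and 2 fell by edgeR (0 rose also at an unadjusted p under 0.05 and with DESeq2). FABP5, a fatty acid carrier, was 0.84 on HFD and -2.34 with shYY2, and ACOT7, a thioesterase, 0.74 and -1.92.

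The sterol branch, 18 genes activated mainly by SREBP2, had 8 higher and 4 lower on HFD (4 and 3 with DESeq2), 6 higher and 1 lower with HA-TRIM15, 2 higher and 14 lower with shYY2, and 1 higher and 4 lower with shFOXRED1. With shYY2 its median log2 fold change was -0.61, beside -0.54 for the 9 genes above and -0.01 for all genes. CYP51A1, a demethylase of sterol synthesis, went from 16.8 to 7.41 CPM there (-1.18), while SREBF2, the gene of SREBP2, was higher (0.33). Within this list the largest rise was that of SQLE (0.70) on HFD and of HMGCS1 (0.53) with HA-TRIM15, among called genes whose groups did not overlap. Summed over the 10 genes of the pathway, libraries held 1263 to 1310 CPM on HFD and 1041 to 1062 CPM on ND, 1363 to 1434 CPM with HA-TRIM15 and 1468 to 1478 CPM with EV, 1411 to 1418 CPM with shYY2 and 1577 to 1617 CPM with shControl, and 2338 to 2410 CPM with shFOXRED1 and 2186 to 2249 CPM with its shControl. These sums are carried mostly by SCD, ACLY and FASN. They did not overlap between treated and control libraries in any of the 4 experiments, and neither did those of the 14 regulators, for example 1015 to 1024 CPM on HFD and 1051 to 1079 CPM on ND. The sums of the 15 supply genes did not overlap in any experiment either, so this was not particular to the pathway. Of single genes, between 37.7% (HA-TRIM15) and 76.3% (shYY2) showed no overlap.

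**Figure D4:**
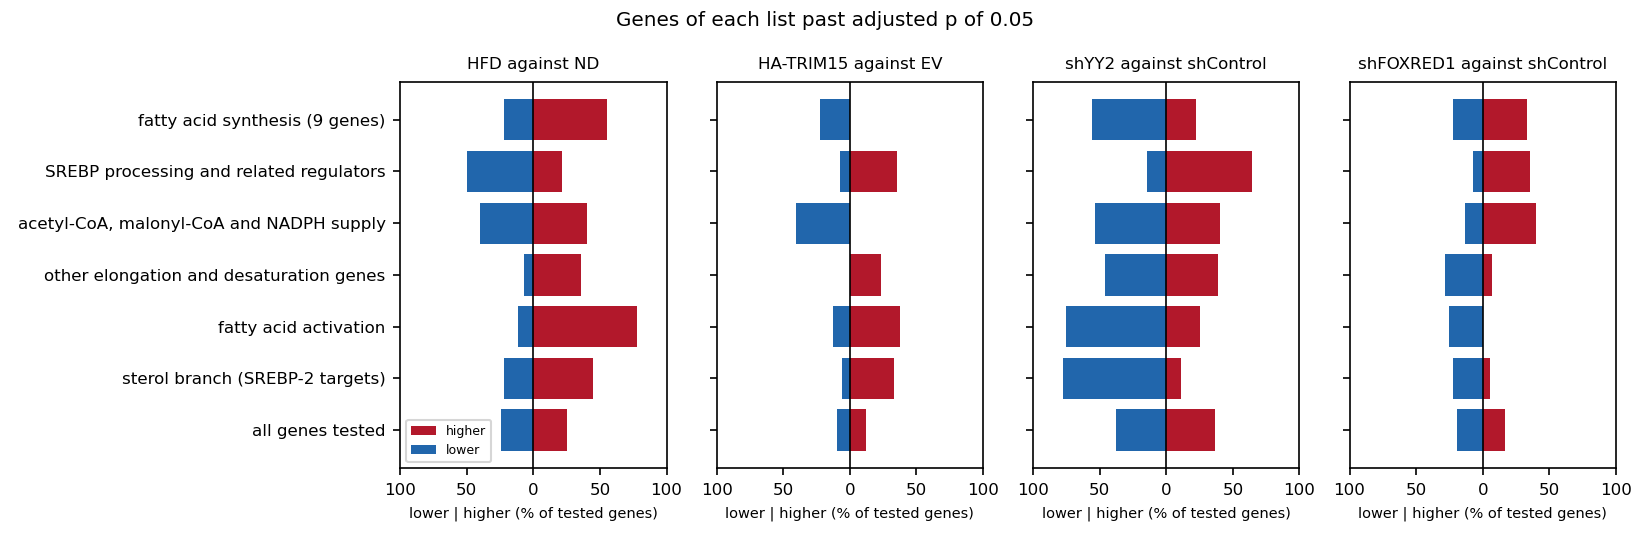
Share of tested genes of each list called higher (right, red) or lower (left, blue) by edgeR at an adjusted p under 0.05 in each experiment, with all genes tested at the bottom. With shYY2 the lower calls cover 14 of 18 sterol branch genes and 5 of the 9 pathway genes against 38.1% of all genes. With HA-TRIM15 the higher calls cover 0 of the 9, against 12.5% of all genes.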

How the data were processed

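RNA-seq of 24 libraries (8 groups of 3, from the sample labels) was used. Per experiment, the authors deposited 1 table of raw, not normalized read counts for 61860 Ensembl identifiers. The aligner, counter, annotation and treatment of mouse reads are not given in the sources used here. The submitters' processing notes list hg38 and mm10 without a role. The labels name a directional library kit and the paper the plain one, so the strand setting of the counting is unknown.

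Counts were analysed in R 4.3.3 with edgeR 4.0.16: filterByExpr (minimum count 10, minimum total count 15), TMM factors, and glmQLFit and glmQLFTest within each experiment, with p adjusted by Benjamini-Hochberg across every gene tested and a threshold of 0.05. Standard errors are the log2 fold change over the square root of F. Differences between experiments came from 1 fit of all libraries with the same test. CPM values use TMM library sizes. An exact test of 3 against 3 cannot go below 0.1. DESeq2 1.42.0 was an alternative, beside other scalings, filters, fold limits, a replicate block and leaving out each library. Counts were also simulated with only a small share of genes changed. On these edgeR recovered, over the 4 experiments, 17.1% to 55.7% of genes changed 1.2-fold and 77.6% to 88.5% of those changed 2-fold. There 6% to 9.15% of its calls were false (2.13% to 5.51% for DESeq2). A far larger share of genes was called in the data than was changed in the simulation. The simulated false shares therefore do not carry over to the calls given here.

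All members are named; from the other lists SREBF2, SCAP, INSIG1 and MLXIPL were eligible always, and otherwise the 2 largest called changes in each direction without overlap of the groups and with mean CPM not under 1. Members and lists were chosen with earlier results of these data known. No pair of replicates agreed within sampling noise (chi-square per gene 1.47 to 8.09). Promoter windows and motifs came from RefSeq, exon lengths from GENCODE 29.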

Additional observations from a re-analysis of the deposited data

How the results depend on the processing

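The alternatives were DESeq2's size factors, upper quartile factors, total counts, no filter, at least 10 counts in every library, DESeq2's Wald test, the replicate block, fold limits and leaving out each library. With a fold change of at least 1.2, the genes of the pathway called higher and lower were 3 and 2 on HFD and 0 and 1 with HA-TRIM15. They were 2 and 5 with shYY2 and 1 and 2 with shFOXRED1. Over all genes, in either direction, that limit left 31.6% on HFD, 7.63% with HA-TRIM15, 63.3% with shYY2 and 29.5% with shFOXRED1. At least 2-fold, FASN with shYY2 alone remained, so 1 was lower there, and 0 were called in the other experiments. The shares of all genes at that limit were 3.83% on HFD, 0.724% with HA-TRIM15, 19.6% with shYY2 and 3.46% with shFOXRED1. DESeq2's Wald test called 1 lower on HFD and 1 lower with HA-TRIM15, beside 3042 and 1098 over all genes. Total counts left 3 higher on HFD, beside 2800 over all genes.

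Over all genes, a fold change of at least 1.2 left 2699 higher and 2680 lower on HFD and 731 higher and 471 lower with HA-TRIM15. A fold change of at least 2 left 208 higher and 444 lower on HFD, 78 and 36 with HA-TRIM15, 1748 and 1394 with shYY2 and 344 and 200 with shFOXRED1. Upper quartile factors gave 3430 higher and 5195 lower on HFD, and total counts 2800 and 6415 there and 1511 and 2214 with HA-TRIM15, against 1973 and 1501 with TMM.

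Leaving out 1 library at a time gave 4 to 6 genes of the pathway higher and 1 to 2 lower on HFD, 1 to 3 lower with HA-TRIM15 and 1 to 4 higher with shFOXRED1 (1 without shControl replicate 2). Over all genes it gave 3881 to 4270 higher and 3343 to 3709 lower on HFD and 2080 to 3215 higher with shFOXRED1. With HA-TRIM15 it gave 1247 to 2594 higher and 787 to 2506 lower over all genes. There the lowest counts were both without EV replicate 3 and the highest lower count without HA-TRIM15 replicate 1. Signs turned for values that were not called. ACSS2 on HFD was -0.0439 with total counts. Leaving out 1 library gave -0.206 to 0.171 for ACACA with HA-TRIM15 (above 0 without HA-TRIM15 replicate 2 or EV replicate 3) and -0.0129 to 0.0708 for FADS1 with shFOXRED1 (below 0 without shFOXRED1 replicate 2 or shControl replicate 3). The difference of SREBF1 between HFD and HA-TRIM15 was 0.0228 with DESeq2's size factors, 0.00455 with the replicate block and -0.0476 to 0.0656 without 1 library, and that of FADS2 was -0.0179 to 0.109 without 1 library. The cause was not tested.

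Replicate numbers are shared between groups. Over all tested genes, deviations from the group means of same-numbered libraries correlated between -0.04 and 0.12, so the numbers were taken not to pair them, although over genes above 10 CPM the shFOXRED1 values were 0.214, 0.127 and 0.414. With the replicate block 5 genes of the pathway were higher and 2 lower on HFD, 0 and 3 with HA-TRIM15 (FASN added), 2 and 5 with shYY2 and 3 and 3 with shFOXRED1 (ACLY added). Over all genes the block gave 4312 higher and 3953 lower of 17012 on HFD and 1964 and 1625 of 15745 with HA-TRIM15. It gave 5936 and 6196 of 16006 with shYY2 and 3157 and 3636 of 15730 with shFOXRED1. Levels of FADS2 rest on few counts.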
